A study of Mus musculus with 80 samples.

Results

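The comparison described here set mouse livers collected 6 h after food was removed against livers collected at the same hour from mice that kept their food. It covers the 4 libraries titled fasted CT16 and the 4 titled control CT16, 8 of the 80 libraries of the series, chosen by their titles and count columns alone. CT is circadian time, counted in hours under constant darkness. All animals were C57BL/6J mice aged 8 to 12 weeks, group-housed on chow, and livers were taken every 4 h from CT8 to CT44 from 2 males and 2 females per treatment and time. The fasted animals lost their food at CT10, and the controls ate freely until they were killed. Both groups shared strain, darkness and hour of collection, and by their titles differed in food alone. RNA came from a piece of the centre of the left lobe, was selected for poly(A) tails and read in pairs with strand kept. A bulk liver sample mixes all of its cells, so fewer cells of a type and less RNA per cell cannot be told apart. The animals ate freely before CT10, and no measure of what each had eaten or of its blood was used here.

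The liver meets the fed and the unfed state with opposite programmes. After a meal insulin acts through the kinase AKT, which keeps FOXO1 out of the nucleus and supports SREBP1c, the activator of fatty acid synthesis. When food is withheld glucagon and glucocorticoids rise, glycogen is broken down, glucose is made from lactate and amino acids, and fatty acids from fat tissue are burned or turned into ketone bodies under the nuclear receptor PPARα. Mice feed mainly in the dark phase of their cycle, so that the hours after CT10 lead into their usual feeding time.

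The 8 libraries held 29726111 to 51834302 counts each, and ribosomal RNA genes took 0.0655 to 0.628% of them. The median total was 41277506.5 in the control and 40816350.5 in the fasted livers (exact two-sided permutation test of the mean totals, p = 0.8, smallest possible p = 0.0286). Sex-linked genes matched the titled sex of all 80 libraries, although among the 8 used here the detailed labels gave another sex than the title for 4 and another treatment for 4. The defining hepatocyte marker Alb, the gene of serum albumin, stood at 70725, 59473, 80224 and 76127 CPM in the control livers and 83455, 58289.9, 103423 and 88494 CPM in the fasted livers (log2 0.21, adjusted p = 0.263, not called). Of the 10 hepatocyte markers 3 rose and none fell, namely Hnf4a (0.62), Tat (1.40) and Apoa1 (0.69). Of 8 endothelial markers, Oit3 (0.51), Pecam1 (0.36) and Lyve1 (1.26) rose, and of 8 stellate cell markers Lrat fell (-0.58). Apoa1 lost its call without control female 2 or fasted male 1 (log2 0.48 to 0.56), Pecam1 without control male 2, fasted male 1 or fasted female 2 (log2 0.19 to 0.32), Lyve1 without control male 2, control female 2 or fasted male 1 (log2 0.66 to 1.17) and Lrat without control male 2, control female 2, fasted male 1 or fasted female 1 (log2 -0.44 to -0.53). No tested marker of Kupffer cells (10), cholangiocytes (6), lymphocytes and neutrophils (7), exocrine pancreas (7), adipocytes (2), erythrocytes (5) or muscle (1) passed the test. The summed endothelial level was 371 to 460.1 CPM in the control and 399.6 to 528 CPM in the fasted livers, and the summed stellate level 379 to 515 against 364 to 628 CPM. The adipocyte markers summed to at most 0.793 CPM in the control and 2.28 CPM in the fasted livers, with Retn and Lep at 0. Prss2, Cpb1, Amy2a5 and Ctrb1 of the pancreas list and Myh1 of the muscle list were also at 0 in all 8 libraries. The part of these cell types in the changes given next was not tested.

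After 6 h without food 4955 of 21187 tested genes (23.4%) differed between fasted and control livers in edgeR's quasi-likelihood test at a Benjamini-Hochberg adjusted p under 0.05. Of these 2429 (11.5% of those tested) rose and 2526 (11.9%) fell. The median size of the called differences was 0.62 on the log2 scale, and the difference was at least 2-fold for 747 genes that rose and 706 that fell. In 2028 genes (9.57%) all 4 fasted livers lay above all 4 controls, and in 1981 genes (9.35%) they lay below. The median difference over all tested genes was -0.02. In the same test 340 genes (1.60%) had been called at CT12, 2 h after food was removed, and 7757 (36.6%) were called at CT20, after 10 h. Differences are given below as log2 of fasted over control, with ± for an approximate standard error. This error was derived from the quasi-likelihood test, as the absolute difference divided by the square root of the F statistic. It belongs to a difference of 4 against 4 livers, but the spread was estimated in a fit to all 80 libraries. Levels are counts in CPM, scaled to the size of each library, with the livers in the order male 1, male 2, female 1 and female 2. Most genes are named because they had the smallest p in their list, so their differences are larger than those of the lists as a whole.

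**Figure D1:**
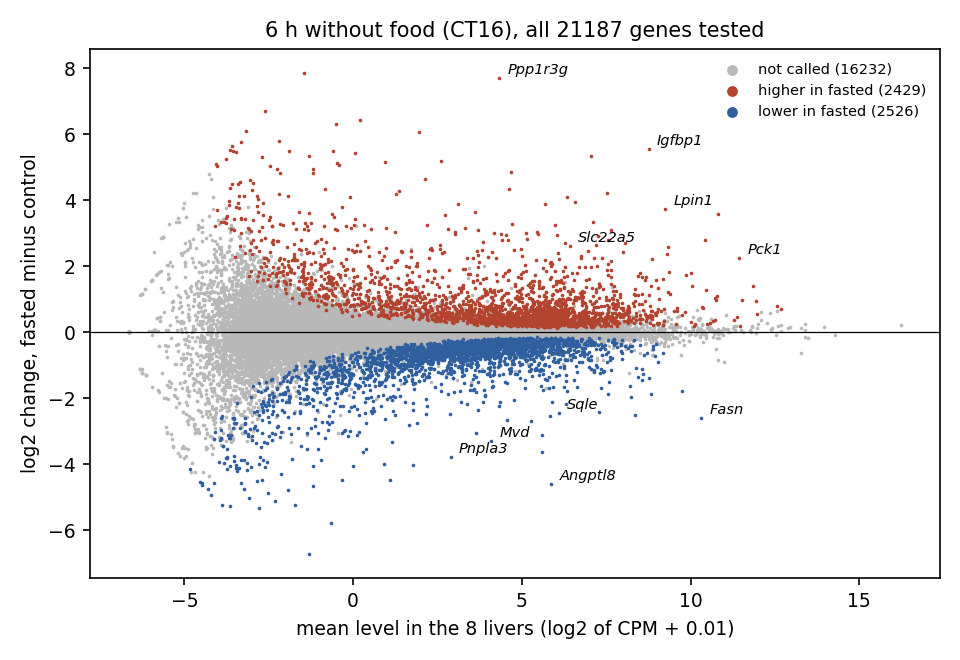
Each point is 1 of 21187 tested genes, with the mean level over the 8 livers on the x axis, as log2(CPM + 0.01), and the log2 difference of fasted over control on the y axis. Coloured points are the 2429 genes that rose (above the line) and the 2526 that fell (below it), and 10 of the genes described in the text are named.

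Genes grouped by function moved unevenly. Cholesterol synthesis fell almost as a whole (19 of 22 tested), fatty acid oxidation (15 of 18) and glucocorticoid-responsive genes (13 of 17) mostly rose, and other groups, such as the clock (6 rose and 2 fell of 19), were split. These counts stand beside 11.5% of all tested genes that rose and 11.9% that fell. Some genes stand in more than 1 list, such as Cdkn1a in the glucocorticoid and growth arrest lists, so the counts are not independent.

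**Figure D2:**
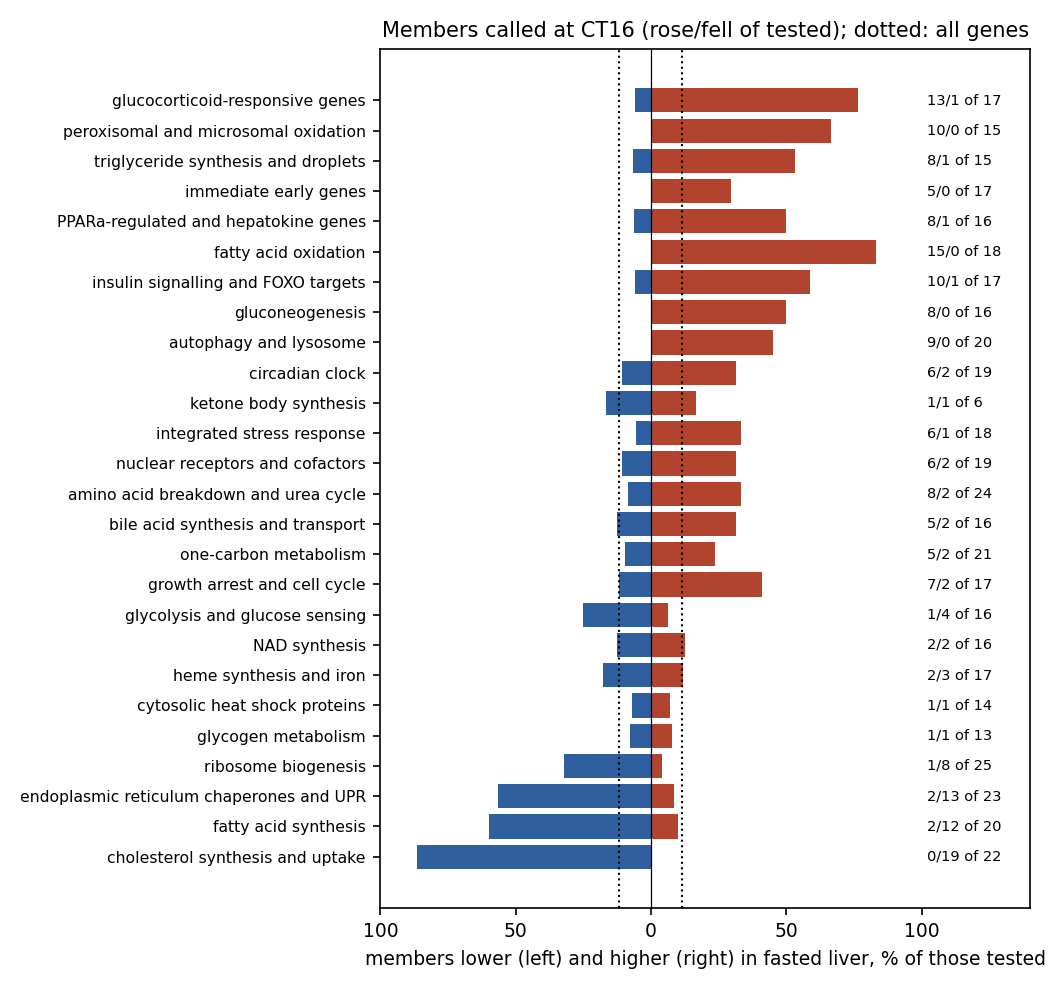
For each of 26 gene lists, ordered by median difference, the bar to the right gives the share of tested members that rose at CT16 and the bar to the left the share that fell, in percent, with the counts at the right edge. Dotted lines mark the shares among all tested genes, 11.5% up and 11.9% down, and cholesterol synthesis reaches farthest to the left.

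Genes of the insulin pathway mostly rose. In the list of insulin signalling and FOXO targets 10 of 17 tested members rose and 1 fell, with a median difference of 0.53. Igfbp1 encodes a hepatic protein that binds insulin-like growth factors and is held down by insulin. It stood at 15.8, 14.7, 4.77 and 28.5 CPM in the control livers and 429.9, 433, 953 and 1585 CPM in the fasted livers. The lowest fasted liver thus lay far above the highest control (log2 5.54 ± 0.96, adjusted p = 2.03e-05). Irs2, the adaptor that couples the insulin receptor to its kinases, measured 10.4, 18.7, 22.1 and 27.1 CPM in the control livers and 70.9, 81.2, 158 and 239 CPM in the fasted livers. All 4 fasted livers were higher, with both females above both males (log2 2.69 ± 0.28, adjusted p = 1.13e-09). Foxo1 itself, the transcription factor that AKT inactivates, stood at 36.6, 36.2, 62.1 and 35.2 CPM in the control livers and 102, 85.7, 117 and 132 CPM in the fasted livers, and the groups did not overlap (log2 1.36 ± 0.14, adjusted p = 3.56e-10). Klf15, a factor of amino acid use and glucose production, rose from 139 ± 20.9 to 279.9 ± 18.7 CPM (mean ± SD, n = 4 each; log2 1.01, adjusted p = 1.36e-05). Akt1 was the member that fell, by less, from 73.2 ± 6.97 to 57.5 ± 5.61 CPM (log2 -0.35, adjusted p = 0.00647), and its groups overlapped.

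Among called genes with an official name, a mean level of at least 1 on the log2 CPM scale and groups that did not overlap, the largest rise was that of Ppp1r3g. Its product is a subunit that steers protein phosphatase 1 to glycogen. Only 2, 8, 13 and 9 reads were counted in the 4 control livers, against 1088, 776, 746 and 4002 in the fasted ones. These counts correspond to 0.0661, 0.193, 0.266 and 0.211 CPM in the control livers and 34.1, 22.4, 18.3 and 84.6 CPM in the fasted livers (log2 7.69 ± 1.16, adjusted p = 1.85e-06). It had already risen at CT12 (3.42, adjusted p = 0.028). In glycogen metabolism it was the only member of 13 that rose, and 1 fell, against 11.5% and 11.9% of all tested genes. Gys2, the glycogen synthase of liver, gave 0.30 (adjusted p = 0.193) with overlapping groups.

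**Figure D3:**
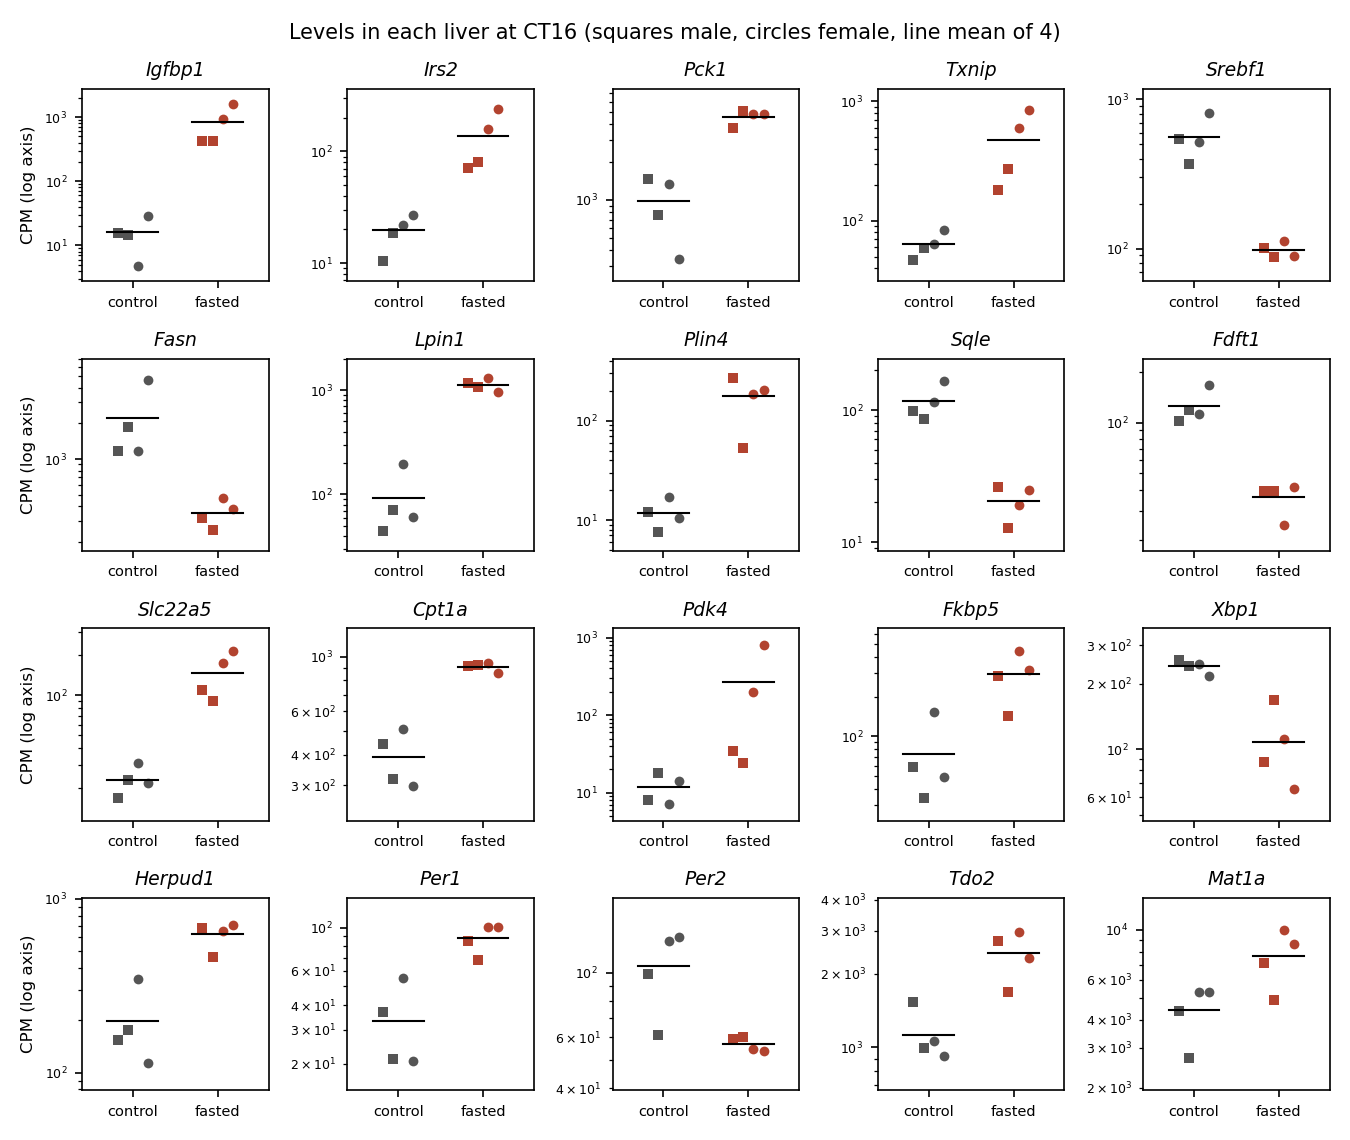
Each panel shows 1 gene with its level in CPM on a logarithmic axis in the 4 control (grey) and 4 fasted (red) livers, males as squares, females as circles and the group mean as a line. Igfbp1 lies between 4.77 and 28.5 CPM in the control livers and between 429.9 and 1585 CPM in the fasted livers.

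Transcripts of glucose production were higher, though not for every enzyme. Of 16 gluconeogenesis genes 8 rose and none fell, and in 8 of the 16 all fasted livers lay above all controls. Lpin1, described below with the triglyceride genes, was among those that rose. Pck1, which makes phosphoenolpyruvate and is the classical controlled step, stood at 1465, 765, 1349 and 338 CPM in the control livers and 3675, 5063, 4751 and 4777 CPM in the fasted livers. All 4 fasted livers lay well above all 4 controls (log2 2.23 ± 0.26, adjusted p = 1.01e-08). G6pc1, the catalytic subunit that releases free glucose, measured 251, 373, 291 and 235 CPM in the control livers and 594, 1108, 1278 and 1093 CPM in the fasted livers (log2 1.81 ± 0.29, adjusted p = 7.35e-06). Crtc2, the coactivator that carries the glucagon signal to CREB, rose in all 4 fasted livers by a small step (log2 0.51, adjusted p = 8.16e-06). Ppargc1a, a coactivator of gluconeogenic and mitochondrial genes, stood at 11.2, 9.34, 9.80 and 11.8 CPM in the control livers and 56.5, 16.7, 40.6 and 37.7 CPM in the fasted livers, with fasted male 2 the lowest of its group (log2 1.85, adjusted p = 7.35e-05). Pcx, which makes oxaloacetate from pyruvate, rose as well (log2 0.52, adjusted p = 0.0013), although 1 control liver lay above the lowest fasted one. Fbp1, the fructose bisphosphatase that opposes glycolysis, was not called at 1153 ± 125 and 1163 ± 33.3 CPM (log2 0.01, adjusted p = 0.979).

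In glycolysis and glucose sensing 1 of 16 tested members rose and 4 fell. Txnip, an arrestin that limits glucose uptake, was the member that rose and stood at 46.7, 58.7, 63.5 and 84.2 CPM in the control livers and 182, 273, 595 and 840.2 CPM in the fasted livers. Females were higher than males in both groups, and no fasted liver reached down to the controls (log2 2.69 ± 0.40, adjusted p = 1.39e-06). Mlxipl, the gene of the glucose-sensing factor ChREBP (-0.62), Tpi1, an enzyme of glycolysis (-0.41), and Gckr, a regulatory protein of glucose use in liver (-0.42), were among those that fell. Mlxipl lost its call without control female 2, fasted male 1 or fasted female 1 (log2 -0.49 to -0.54), and Gckr without control male 2, control female 2, fasted male 1, fasted male 2 or fasted female 2 (log2 -0.30 to -0.43).

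Fatty acid synthesis moved downwards, with 12 of 20 tested members falling and 2 rising (median -0.69). Srebf1, which encodes the activator SREBP1, stood at 544, 369, 520.5 and 809 CPM in the control livers and 101, 87.8, 113 and 89.6 CPM in the fasted livers. No fasted liver came near the controls (log2 -2.50 ± 0.28, adjusted p = 6.69e-09). Fasn, the fatty acid synthase, measured 1162, 1854, 1165 and 4661 CPM in the control livers and 317, 253, 467 and 378 CPM in the fasted livers. Control female 2 was the highest, and all 4 fasted livers lay below all controls (log2 -2.59 ± 0.38, adjusted p = 1.15e-06). Acly, which supplies acetyl-CoA in the cytosol, stood at 556, 719, 308 and 1284 CPM in the control livers and 286, 147, 166 and 181 CPM in the fasted livers (log2 -1.88 ± 0.33, adjusted p = 2.52e-05). Control female 2 was again the highest and the groups did not overlap, and without that liver the difference was log2 -1.19.

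Pnpla3, a lipid droplet protein under SREBP1 control, measured 2.38, 3.21, 5.45 and 44.5 CPM in the control livers and 0.345, 0.145, 1.40 and 1.65 CPM in the fasted livers, where control female 2 stood far above the other controls (log2 -3.77 ± 0.60, adjusted p = 5.75e-06). Outside the list, Mid1ip1, which activates acetyl-CoA carboxylase, stood at 81.9, 84.1, 64.8 and 119 CPM in the control livers and 10.8, 12.4, 11.0 and 6.54 CPM in the fasted livers and had narrow groups (log2 -3.12 ± 0.24, adjusted p = 5.01e-13). Angptl8, a secreted inhibitor of lipid uptake that rises on feeding and stands in the list of PPARα-regulated and hepatokine genes, had the largest fall of the same kind. Its levels were 156, 140.2, 93.6 and 61.3 CPM in the control livers and 5.05, 3.41, 5.28 and 3.95 CPM in the fasted livers (log2 -4.60 ± 0.51, adjusted p = 3.28e-09), and at CT12 the difference was already -3.06 (adjusted p = 1.13e-04).

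The listed members that rose do not build fatty acids from acetyl-CoA in the way Fasn does. Insig2, which retains SREBP proteins in the endoplasmic reticulum, stood at 132, 169.6, 248 and 151 CPM in the control livers and 492, 295, 814 and 729 CPM in the fasted livers (log2 1.67 ± 0.22, adjusted p = 1.16e-07). Elovl5, an elongase of polyunsaturated fatty acids, rose by 0.59 (adjusted p = 0.0416) with overlapping groups and lost its call with any 1 liver left out other than fasted male 2 (log2 0.44 to 0.67). Scd1, the desaturase that makes oleate, gave -0.64 (adjusted p = 0.399), with 9656, 9464, 5937 and 23166 CPM in the control and 9717, 6902, 6068 and 7799.9 CPM in the fasted livers. Without control female 2 the count of members that fell went from 12 to 6.

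Genes of the lipid droplet and of triglyceride handling rose, 8 of 15 tested members against 1 that fell (median 1.38). Lpin1, which is both a phosphatidate phosphatase and a partner of PPARα, stood at 44.3, 70.2, 196 and 61.4 CPM in the control livers and 1175, 1078, 1299.6 and 965 CPM in the fasted livers. Control female 1 was the highest control, still well under every fasted liver (log2 3.72 ± 0.57, adjusted p = 2.90e-06). Its relative Lpin2 measured 204, 266, 179 and 169 CPM in the control livers and 992, 836, 1074 and 1306 CPM in the fasted livers (log2 2.37 ± 0.22, adjusted p = 4.64e-11). Both encode enzymes that make diacylglycerol.

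Plin4, a droplet coat protein, stood at 12.1, 7.602, 17.1 and 10.6 CPM in the control livers and 272, 53.2, 187 and 203 CPM in the fasted livers (log2 3.93 ± 0.41, adjusted p = 8.64e-10). Fasted male 2 had the lowest value of its group, and that liver was also the lowest for Plin5, with 58.2, 52.2, 65.0 and 60.7 CPM in the control livers and 292, 113, 281 and 274 CPM in the fasted livers (log2 2.01 ± 0.22, adjusted p = 3.71e-09). Plin5 couples droplets to mitochondria. Cidec, which fuses droplets into larger ones, measured 2.54, 2.20, 1.74 and 0.940 CPM in the control livers and 31.6, 21.98, 24.9 and 11.8 CPM in the fasted livers, without overlap (log2 3.63 ± 0.41, adjusted p = 6.69e-09). Pnpla2, the lipase that starts the breakdown of stored triglyceride, rose in all 4 livers (log2 1.97, adjusted p = 4.95e-10), whereas Abhd5, the activator of that lipase, fell in all 4 (log2 -0.55, adjusted p = 2.86e-04).

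Cholesterol synthesis had the largest share of members that fell among the 26 pathway lists. Of 22 tested members 19 fell and none rose, 17 with all fasted livers under all controls, and the median was -1.44. Members fell from the entry of the pathway to its end. Mvd, which makes isopentenyl pyrophosphate, had the largest change of the list, with 23.1, 28.9, 22.1 and 49.7 CPM in the control livers and 3.51, 2.54, 2.16 and 4.25 CPM in the fasted livers (log2 -3.29 ± 0.36, adjusted p = 2.74e-09). Even the lowest control lay far above the highest fasted liver.

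Hmgcs1, an early enzyme of the pathway, stood at 163, 255, 271 and 440.4 CPM in the control livers and 57.0, 71.0, 124 and 166 CPM in the fasted livers. Here fasted female 2 reached just above control male 1, so that the groups overlapped (log2 -1.50 ± 0.27, adjusted p = 4.62e-05). Sqle, the epoxidase of squalene, measured 98.8, 85.0, 115 and 166 CPM in the control livers and 26.1, 12.7, 19.0 and 24.9 CPM in the fasted livers (log2 -2.46 ± 0.35, adjusted p = 7.76e-07). Fdft1, the squalene synthase (-1.79), and Lss, which closes the sterol rings (-1.66), fell without overlap.

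Among the 3 members that did not pass were Srebf2, the gene of the pathway's own activator (log2 -0.18, adjusted p = 0.359), and Hsd17b7 (log2 0.13, adjusted p = 0.563). The activator's transcript stood at 86.6 ± 18.9 CPM in the control and 75.4 ± 10.2 CPM in the fasted livers (mean ± SD, n = 4 each).

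The promoter of Hmgcs1 is printed because it was the only gene among the 14 cholesterol genes with a promoter in the RefSeq table that held a match to the sterol regulatory element. The element was searched as TCACNCCAC on both strands in the 250 bases before the start of each gene, build GRCm38.p6, where N is any base, and 331 of 27025 genes (1.22%) held it. The window is chr13:119690101-119690350 on the plus strand, and capitals mark the fixed letters of the match.
Hmgcs1: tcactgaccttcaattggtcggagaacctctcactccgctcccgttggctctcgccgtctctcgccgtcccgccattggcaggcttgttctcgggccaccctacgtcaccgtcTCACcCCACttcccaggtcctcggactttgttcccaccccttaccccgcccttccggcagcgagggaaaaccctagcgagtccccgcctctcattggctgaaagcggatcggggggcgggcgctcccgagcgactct
The short motif CCAAT, searched likewise, was in all 14 of these promoters and in 37.5% of all. Neither match shows that a factor bound there.

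Fatty acid oxidation in mitochondria mostly rose. Of 18 tested members 15 rose and none fell, and in 12 of the 18 all fasted livers lay above all controls, with a median of 0.62. Cpt1a, which admits long-chain fatty acids to the mitochondrion, stood at 440.3, 319, 508 and 298 CPM in the control livers and 913, 922, 946 and 856 CPM in the fasted livers. The fasted livers were tightly grouped and all above the controls (log2 1.22 ± 0.16, adjusted p = 9.84e-08). Slc22a5, the carnitine carrier of the cell membrane, measured 16.8, 22.8, 31.0 and 21.8 CPM in the control livers and 109.7, 90.8, 174 and 216 CPM in the fasted livers (log2 2.61 ± 0.22, adjusted p = 6.21e-12). Acot2, a mitochondrial acyl-CoA thioesterase, stood at 2.64, 3.38, 10.2 and 10.0 CPM in the control livers and 14.5, 11.5, 72.1 and 160.3 CPM in the fasted livers. Females were higher than males in each group, and the groups still did not overlap (log2 2.81 ± 0.39, adjusted p = 4.51e-07). Eci2, an isomerase for unsaturated chains, rose by 1.24.

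Peroxisomal and microsomal oxidation, which handle very long and omega-oxidised chains, followed with 10 of 15 members that rose and none that fell (median 1.40). Cyp4a10, an omega-hydroxylase and standard PPARα target, measured 139, 209, 821 and 306 CPM in the control livers and 1239, 1449.7, 3589 and 3284 CPM in the fasted livers (log2 2.78 ± 0.35, adjusted p = 5.82e-08). Ehhadh, the bifunctional enzyme of peroxisomal oxidation, stood at 290.5, 351, 413 and 546 CPM in the control livers and 769, 669, 1959.9 and 3230.2 CPM in the fasted livers, with both fasted females above both fasted males (log2 1.80 ± 0.23, adjusted p = 9.38e-08). Crat, which moves acetyl groups onto carnitine (1.58), and Pex11a, a factor of peroxisome division (1.89), rose in all 4 livers.

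Of 6 tested members of the ketone body list 1 rose and 1 fell, against 11.5% and 11.9% of all tested genes. The member that fell was Slc16a6, a carrier that exports ketone bodies (log2 -0.73, adjusted p = 0.0116).

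Among PPARα-regulated and hepatokine genes 8 of 16 rose and 1, Angptl8, fell. Ppara, the receptor itself, stood at 114, 129.9, 139.6 and 133 CPM in the control livers and 293, 251, 315 and 380.2 CPM in the fasted livers (log2 1.26 ± 0.23, adjusted p = 3.98e-05). Creb3l3, a partner of PPARα in the endoplasmic reticulum, rose in all 4 livers (log2 0.84, adjusted p = 4.804e-08). Angptl4, an inhibitor of lipoprotein lipase, measured 11.8, 60.6, 65.3 and 29.9 CPM in the control livers and 314, 306, 384 and 428 CPM in the fasted livers (log2 3.09 ± 0.46, adjusted p = 1.83e-06). Fgf21, the hormone of the unfed liver, was close to the limit of counting in the control livers. Its levels were 0.0991, 0.386, 0.225 and 0.493 CPM in the control livers and 6.36, 2.95, 12.4 and 12.2 CPM in the fasted livers, every fasted liver being above every control (log2 4.63 ± 0.80, adjusted p = 1.82e-05).

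Pdk4, the kinase that shuts pyruvate out of the mitochondrial oxidation cycle, stood at 8.03, 18.2, 7.21 and 14.3 CPM in the control livers and 34.5, 23.9, 200.03 and 802 CPM in the fasted livers (log2 3.35 ± 0.53, adjusted p = 4.08e-06). The fasted females were higher than the fasted males by a wide margin, and the difference between the sexes is given with the other sex values.

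Glucocorticoid-responsive genes had the highest median of all 26 pathway lists, 1.68. Of 17 tested members 13 rose and 1 fell. Cdkn1a, the cell cycle inhibitor p21, measured 4.26, 3.93, 27.4 and 5.85 CPM in the control livers and 149, 38.8, 218 and 203 CPM in the fasted livers (log2 4.09 ± 0.53, adjusted p = 1.08e-07). Fkbp5, a chaperone that restrains the glucocorticoid receptor, stood at 58.2, 33.9, 154 and 48.8 CPM in the control livers and 285, 142, 446 and 320.5 CPM in the fasted livers. Fasted male 2 lay under control female 1, so that the groups overlapped (log2 2.07 ± 0.32, adjusted p = 3.78e-06). Klf9, a transcription factor induced through the same receptor, measured 93.3, 91.9, 96.0 and 50.02 CPM in the control livers and 198, 195, 247 and 271 CPM in the fasted livers (log2 1.46 ± 0.19, adjusted p = 1.36e-07).

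The metallothioneins Mt1 and Mt2 bind zinc and respond to glucocorticoids and metals. Mt1 stood at 12.7, 2.12, 53.6 and 23.3 CPM in the control livers and 353, 39.4, 549 and 429 CPM in the fasted livers (log2 4.21 ± 0.78, adjusted p = 6.01e-05). Mt2 followed it with 2.08, 0.700, 40.8 and 5.52 CPM in the control livers and 252, 16.3, 416 and 336 CPM in the fasted livers (log2 5.33 ± 0.94, adjusted p = 2.74e-05). In Cdkn1a, Fkbp5, Klf9, Mt1 and Mt2 alike, control female 1 was the highest control and fasted male 2 the lowest fasted liver. Nr3c1, the gene of the glucocorticoid receptor, was the member that fell, from 132 ± 9.08 to 104 ± 7.85 CPM (log2 -0.34, adjusted p = 0.00211). A match to the glucocorticoid response element, searched as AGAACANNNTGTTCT in the same windows, was held by 3 of 27025 genes (0.0111%) and by 1 of the 14 listed genes with a promoter in the table, Sgk1.

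Of 17 immediate early genes 5 rose and none fell. Jun, a subunit of the factor AP-1, measured 15.5, 12.7, 16.5 and 13.1 CPM in the control livers and 29.9, 44.7, 63.0 and 83.8 CPM in the fasted livers (log2 1.86 ± 0.37, adjusted p = 1.81e-04), and its relative Junb rose too (log2 1.13, adjusted p = 0.00535). Zfp36, which destabilises messenger RNAs, rose in all 4 livers (log2 1.00, adjusted p = 0.0317). Nr4a2 (log2 1.17, adjusted p = 0.0199) and Nr4a3 (log2 2.05, adjusted p = 0.0168), orphan nuclear receptors that respond to glucagon, were counted at about 1 CPM or less in most livers. Fos, the partner of Jun, gave 0.88 (adjusted p = 0.239). Nr4a2 lost its call without control male 1, control female 2, fasted male 2 or fasted female 2 (log2 1.00 to 1.14), Nr4a3 without control male 2, control female 2, fasted male 1 or fasted female 2 (log2 1.13 to 1.98) and Zfp36 with any 1 liver left out other than control female 2 (log2 0.88 to 1.05). Without control male 1 the difference in Nr4a3 was larger, log2 3.38. The count of members that rose went to 3 without control male 2, fasted male 1 or fasted male 2, and to 2 without fasted female 2.

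Chaperones of the endoplasmic reticulum were lower in fasted livers. These proteins fold what the liver secretes, and the unfolded protein response, run by the sensors ATF6, IRE1 and PERK, raises them when folding falls behind. Of 23 tested members 13 fell and 2 rose, with a median of -0.39. Xbp1, the factor that IRE1 activates by splicing, stood at 258, 241, 245 and 218 CPM in the control livers and 86.9, 168, 111 and 65.4 CPM in the fasted livers. Fasted male 2 was the highest of its group and still under every control (log2 -1.18 ± 0.19, adjusted p = 5.03e-06). Pdia4, a disulphide isomerase, measured 128, 218, 206 and 129 CPM in the control livers and 75.7, 102, 115 and 87.0 CPM in the fasted livers (log2 -0.85 ± 0.17, adjusted p = 1.48e-04). Hspa5, the master chaperone BiP, stood at 561, 858, 914 and 487 CPM in the control livers and 369, 496, 579 and 385 CPM in the fasted livers, with overlapping groups (log2 -0.63 ± 0.22, adjusted p = 0.0334).

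Other folding factors moved less. Calr, a lectin chaperone that stores calcium, fell (log2 -0.50, adjusted p = 0.00756), and so did its membrane-bound relative Canx (log2 -0.25, adjusted p = 0.0187). Hsp90b1, the HSP90 of this compartment, gave -0.21 (adjusted p = 0.327). Herpud1, which serves the degradation of misfolded proteins, rose by contrast and stood at 154, 176, 348 and 113 CPM in the control livers and 685, 465, 654 and 711 CPM in the fasted livers (log2 1.68 ± 0.28, adjusted p = 8.82e-06). Atf6, the sensor that is cleaved in the Golgi, rose by a smaller step (log2 0.51, adjusted p = 2.40e-05).

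The call of Hspa5 was lost without control male 2, control female 1, fasted male 1 or fasted female 2 (log2 -0.37 to -0.53), that of Calr without control male 2, control female 1 or fasted female 2 (log2 -0.31 to -0.45) and that of Canx without control male 2, control female 1, fasted male 1 or fasted female 2 (log2 -0.18 to -0.23). The number of members that fell was 5 without control male 2, 5 without control female 1, 7 without fasted male 1 and 6 without fasted female 2, against 13 with all livers.

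The endoplasmic reticulum stress element, ERSE, is the sequence through which ATF6 acts. It was searched as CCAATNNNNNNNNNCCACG on both strands in the same windows, its first letters being a CCAAT motif, and 35 of 27025 genes (0.13%) held it. Of the 19 listed genes with a promoter in the RefSeq table, 9 (47.4%) did. Of these 9, Hspa5, Calr and Canx fell and 6 were not called, while of the 10 without a match 7 fell and 1, Herpud1, rose. The called genes with a match and Hsp90b1, which holds a pair of matches and was not called, are shown so that their spacing can be compared. Capitals mark the fixed letters, and CGTGG with ATTGG is the same element on the other strand. The windows are chr2:34771840-34772089 (plus strand), chr8:84846932-84847181 (minus), chr11:50325674-50325923 (minus) and chr10:86705445-86705694 (minus), each written in the direction of its gene.
Hspa5: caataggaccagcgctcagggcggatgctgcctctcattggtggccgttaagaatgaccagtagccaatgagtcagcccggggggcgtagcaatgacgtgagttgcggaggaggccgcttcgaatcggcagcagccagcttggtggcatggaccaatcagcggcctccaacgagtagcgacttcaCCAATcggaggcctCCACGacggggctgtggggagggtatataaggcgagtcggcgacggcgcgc
Calr: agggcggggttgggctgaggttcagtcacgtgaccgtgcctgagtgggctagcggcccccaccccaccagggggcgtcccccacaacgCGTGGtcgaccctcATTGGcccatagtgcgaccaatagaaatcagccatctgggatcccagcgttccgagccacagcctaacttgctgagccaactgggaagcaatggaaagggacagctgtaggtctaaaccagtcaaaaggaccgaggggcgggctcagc
Canx: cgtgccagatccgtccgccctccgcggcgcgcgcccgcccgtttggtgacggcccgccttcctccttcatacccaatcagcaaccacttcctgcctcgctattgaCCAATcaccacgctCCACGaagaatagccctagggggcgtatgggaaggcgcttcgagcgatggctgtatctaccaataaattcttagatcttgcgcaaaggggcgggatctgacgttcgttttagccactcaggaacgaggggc
Hsp90b1: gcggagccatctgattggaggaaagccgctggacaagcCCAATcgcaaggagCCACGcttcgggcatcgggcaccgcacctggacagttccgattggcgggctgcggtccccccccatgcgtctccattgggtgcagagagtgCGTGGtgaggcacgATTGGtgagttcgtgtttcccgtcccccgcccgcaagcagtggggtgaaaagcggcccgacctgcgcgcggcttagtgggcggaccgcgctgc

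Cytosolic heat shock proteins showed 1 rise and 1 fall among 14 tested members, no more than the shares of 11.5% and 11.9% among all tested genes. Hsp90aa1, the inducible HSP90, measured 357, 302, 329 and 277 CPM in the control livers and 146, 155, 209 and 215 CPM in the fasted livers (log2 -0.82 ± 0.21, adjusted p = 0.00237). Hspa1a, the inducible HSP70, rose from very low levels, 0.0661, 0.603, 2.03 and 1.48 CPM, to 2.16, 2.49, 3.54 and 1.73 CPM (log2 1.64, adjusted p = 0.011), with overlap, and lost its call without control male 1, control female 2 or fasted female 1 (log2 1.26 to 1.54). Without control male 2 the difference in Hspa1a was log2 2.83. Hspa8, the constitutive HSP70, gave 0.06 (adjusted p = 0.88).

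Ribosome biogenesis leaned downwards, with 8 of 25 tested members falling, 1 rising and a median of -0.24. Dkc1, the pseudouridine synthase of ribosomal RNA, stood at 14.97, 14.3, 15.6 and 16.2 CPM in the control livers and 6.74, 9.17, 9.02 and 6.85 CPM in the fasted livers, and all 4 fasted livers were lower (log2 -0.94 ± 0.13, adjusted p = 8.13e-07). Rrp9 (-0.72) and Fbl, the fibrillarin that methylates ribosomal RNA (-0.33), fell without overlap, as did Polr1b, a subunit of RNA polymerase I (-0.44). Npm1, a nucleolar chaperone, was the member that rose (log2 0.38, adjusted p = 0.0333). Polr1b lost its call without fasted male 1 or fasted female 2 (log2 -0.37) and Npm1 with any 1 liver left out other than fasted male 2 (log2 0.35 to 0.40). The number that fell was 4 without control male 1 or control female 1, 3 without fasted male 1 or fasted female 2, and 5 without fasted male 2, against 8 with all livers.

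The circadian clock was measured at 1 hour, so a level can differ because a rhythm is higher, lower or shifted, and these cannot be told apart here. Of 19 tested clock genes 6 rose and 2 fell. Per1, a repressor that also answers to glucocorticoids and cAMP, stood at 36.8, 21.1, 54.8 and 20.7 CPM in the control livers and 85.2, 67.9, 101 and 100.2 CPM in the fasted livers (log2 1.41 ± 0.34, adjusted p = 0.00162). Per2, its close relative, went the other way with 99.1, 61.1, 128 and 133 CPM in the control livers and 59.2, 59.9, 54.5 and 53.6 CPM in the fasted livers. Control male 2 was near the fasted livers, and the other controls were well above them (log2 -0.85 ± 0.22, adjusted p = 0.00297). Ciart, a repressor of CLOCK and BMAL1, measured 10.3, 2.99, 6.70 and 3.57 CPM in the control livers and 26.7, 13.4, 23.0 and 14.6 CPM in the fasted livers (log2 1.74 ± 0.34, adjusted p = 1.43e-04).

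The nuclear receptors of the clock rose, namely Rora, an activator of Bmal1 (log2 0.90, adjusted p = 1.31e-06), and Nr1d2, which encodes REV-ERBβ, a repressor of it (log2 0.91, adjusted p = 1.37e-05). Clock, the partner of BMAL1, rose by 0.40 (adjusted p = 0.00515), and Nfil3, a repressor at D-boxes, by 0.74 (adjusted p = 0.0106). Bhlhe40, a repressor also known as DEC1, fell (log2 -0.59, adjusted p = 0.0414). Bmal1 (0.26), Cry1 (0.50), Nr1d1 (0.61), Per3 (-0.78) and Dbp (0.32) were among the 11 that did not pass, with adjusted p of 0.579, 0.0662, 0.186, 0.0625 and 0.613. Bhlhe40 lost its call with any 1 liver left out other than control male 1 (log2 -0.52 to -0.65), Clock without fasted female 2 (log2 0.32) and Nfil3 without control male 2 or fasted female 2 (log2 0.59 to 0.67). In turn Cry1 passed without fasted male 2 (log2 0.62), and Per3 passed without fasted male 2 (log2 -0.96).

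Clock proteins act at the E-box, CACGTG, which was found in the same windows of 1854 of 27025 genes (6.86%) and of 5 of the 15 clock genes with a promoter in the table. Of these 5, Per1 and Ciart rose and 3 were not called. Of the 10 without a match 4 rose. The promoters of the pair that rose are shown with the E-boxes in capitals, Per1 at chr11:69098699-69098948 on the plus strand and Ciart, with 3 matches, at chr3:95882229-95882478 on the minus strand.
Per1: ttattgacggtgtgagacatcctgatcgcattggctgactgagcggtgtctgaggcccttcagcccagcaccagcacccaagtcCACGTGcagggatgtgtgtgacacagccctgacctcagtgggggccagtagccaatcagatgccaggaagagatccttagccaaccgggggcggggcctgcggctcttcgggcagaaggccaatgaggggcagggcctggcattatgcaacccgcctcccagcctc
Ciart: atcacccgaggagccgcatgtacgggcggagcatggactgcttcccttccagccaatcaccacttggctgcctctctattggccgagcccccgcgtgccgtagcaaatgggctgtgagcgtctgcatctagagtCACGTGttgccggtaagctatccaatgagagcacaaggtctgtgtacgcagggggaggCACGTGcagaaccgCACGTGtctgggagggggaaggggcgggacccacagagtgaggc

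One-carbon metabolism makes S-adenosylmethionine, the methyl donor. Of 21 tested members 5 rose and 2 fell. Mat1a, the methionine adenosyltransferase of liver, measured 4369.6, 2702, 5317 and 5325 CPM in the control livers and 7138, 4890.2, 9977 and 8610.2 CPM in the fasted livers, with overlapping groups (log2 0.79 ± 0.17, adjusted p = 4.39e-04). Its paralogue Mat2a (0.43), the regulatory subunit gene Mat2b (0.23) and Ahcy, which clears S-adenosylhomocysteine (0.36), rose by small steps. Shmt1 (-0.67) and Mthfd1 (-0.35), which pass carbon between serine and folate forms, fell. The methyltransferases Gnmt (0.01) and Nnmt (0.63), which use the methyl group, were not called, nor were Bhmt (0.38), which remakes methionine from homocysteine with betaine, and Cbs (0.13), with adjusted p of 0.991, 0.285, 0.44 and 0.725. Mat2b lost its call without control male 1, control female 1, fasted male 2 or fasted female 2 (log2 0.17 to 0.21), Ahcy without control male 2 (log2 0.31) and Mthfd1 without control female 2 (log2 -0.28).

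Amino acid breakdown rose in part, with 8 of 24 members up and 2 down. Tdo2, which opens the tryptophan ring, measured 1537, 996, 1059.5 and 923 CPM in the control livers and 2721, 1689, 2958 and 2323 CPM in the fasted livers (log2 1.11 ± 0.17, adjusted p = 1.83e-06). Aass, the start of lysine breakdown, stood at 495, 307, 455 and 419 CPM in the control livers and 1193, 642, 1012 and 892 CPM in the fasted livers (log2 1.16 ± 0.21, adjusted p = 3.67e-05). Got1, the cytosolic aspartate aminotransferase, rose in all 4 livers (log2 1.62, adjusted p = 0.00104). Nags, which makes the activator of the urea cycle (-0.46), and Bckdk, the kinase that holds back the breakdown of branched-chain amino acids (-0.47), fell. Cps1, the entry enzyme of the urea cycle, gave 0.13 (adjusted p = 0.69). Bckdk lost its call without fasted male 1 (log2 -0.40). The number of members that rose went from 8 to 5 without control male 2 or fasted male 1.

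The integrated stress response, which ATF4 drives when translation is checked, showed 6 rises and 1 fall in 18 members. Cebpb measured 85.6, 93.7, 93.3 and 69.9 CPM in the control livers and 224, 316, 288 and 318 CPM in the fasted livers (log2 1.74 ± 0.27, adjusted p = 3.44e-06). Ppp1r15a, which restores translation (1.08), Sesn2, a sensor of leucine (1.54), and Chac1, which degrades glutathione (2.44), rose in all 4 livers. Psph, of serine synthesis, fell (-0.52) and lost its call without fasted male 2 (log2 -0.43). Atf4 itself gave -0.26 (adjusted p = 0.233).

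Autophagy genes rose in 9 of 20 members and fell in none. Ulk1, the kinase that starts the process, stood at 65.2, 69.3, 69.98 and 64.6 CPM in the control livers and 163, 131, 174 and 153 CPM in the fasted livers (log2 1.20 ± 0.15, adjusted p = 2.47e-08). Map1lc3b (1.06) and Gabarapl1 (0.98), which coat the autophagosome, and Bnip3, a receptor for mitochondria (0.85), rose likewise.

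Among bile acid genes 5 of 16 rose and 2 fell, against 11.5% and 11.9% of all tested genes. Abcb4, the phospholipid floppase of bile, measured 182, 233, 245 and 199.7 CPM in the control livers and 362, 433, 544 and 583 CPM in the fasted livers (log2 1.14 ± 0.14, adjusted p = 1.85e-08). Abcg8 and Abcg5, the partners of the sterol exporter, rose by 1.05 and 0.58. Abcc2, the exporter of conjugates (0.72), and Cyp8b1, the sterol 12α-hydroxylase (0.78), also rose. Cyp7a1, the rate-limiting enzyme of bile acid synthesis, went down with 351, 362, 563 and 623 CPM in the control livers and 193, 190.1, 117 and 26.8 CPM in the fasted livers (log2 -1.97 ± 0.61, adjusted p = 0.0145), fasted female 2 being the lowest. Abcb11, the bile salt export pump, fell by a small step (log2 -0.43, adjusted p = 0.0471). The calls of Abcg5 were lost without control male 2, control female 2, fasted male 1 or fasted female 2 (log2 0.41 to 0.55), those of Cyp8b1 without control male 1, control female 2, fasted male 2 or fasted female 1 (log2 0.57 to 0.70), of Cyp7a1 without fasted male 1 or fasted female 2 (log2 -1.62 to -1.98) and of Abcb11 without control male 2, control female 2, fasted male 1, fasted male 2 or fasted female 1 (log2 -0.31 to -0.46). Without control female 2 the number that rose went from 5 to 3.

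Growth arrest genes rose in 7 of 17 members and fell in 2. Gadd45g, a stress-induced partner of p38 kinases, stood at 13.9, 4.01, 6.39 and 3.17 CPM in the control livers and 79.2, 110.1, 100.5 and 96.1 CPM in the fasted livers (log2 3.89 ± 0.74, adjusted p = 9.09e-05). Gadd45b measured 0.925, 0.869, 1.58 and 1.41 CPM in the control livers and 5.67, 0.521, 22.1 and 46.6 CPM in the fasted livers. Fasted male 2 lay below all the controls and the females far above them (log2 3.15 ± 0.54, adjusted p = 1.60e-05). Without fasted male 1 the difference in Gadd45b was log2 1.87, and in males alone it was 1.78 and not called. Gadd45a, the remaining member of that family, fell in all 4 livers (log2 -1.89, adjusted p = 7.45e-05). Ccng2, a FOXO target (2.31), and Btg1 (0.93), both brakes on proliferation, rose, and Ccnd1, the cyclin that starts the cycle, fell with overlapping groups (log2 -1.16, adjusted p = 0.00414).

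Of 19 nuclear receptors and cofactors 6 rose and 2 fell. Ppargc1b, a coactivator related to Ppargc1a, stood at 5.05, 5.79, 3.98 and 5.31 CPM in the control livers and 24.6, 9.72, 13.9 and 20.6 CPM in the fasted livers (log2 1.78 ± 0.23, adjusted p = 1.07e-07), and Nr1i2, the xenobiotic receptor PXR, rose by 0.89. Ppard, the relative of Ppara, fell (log2 -0.80, adjusted p = 4.64e-04). In NAD synthesis 2 of 16 members rose and 2 fell, near the shares of 11.5% and 11.9% among all tested genes, and 12 were not called. The deacetylases Sirt1 (0.43) and Sirt3 (0.31), which consume NAD, rose. Nmnat3 (-0.87) and Naprt (-0.29), which make it, fell. Nampt, the rate-limiting enzyme of salvage, gave 0.26 (adjusted p = 0.196) and passed without control male 1 (log2 0.44). Naprt lost its call with any 1 liver left out other than fasted male 2 (log2 -0.25 to -0.32). In heme and iron genes Cpox (0.46) and Bmp6 (0.38) rose, of 17 tested, and 3 members fell, among them Ppox (-0.58) and Alad (-0.66). These counts too stand beside 11.5% and 11.9% of all tested genes. Alas1, the rate-limiting enzyme of heme synthesis, was not called (log2 -0.09, adjusted p = 0.933). Cpox lost its call without control male 1, control female 2, fasted male 2 or fasted female 1 (log2 0.33 to 0.42) and Bmp6 with any 1 liver left out other than fasted female 1 (log2 0.34 to 0.40).

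Several of the largest changes belonged to none of these lists. Rgs16, a brake on signalling by G proteins, measured 0.396, 1.21, 1.19 and 7.33 CPM in the control livers and 19.8, 19.2, 61.3 and 86.6 CPM in the fasted livers (log2 4.33 ± 0.98, adjusted p = 7.79e-04). Myom1, a protein of the muscle M-band, rose from about 1 CPM in each control, 1.29, 1.16, 0.881 and 0.799, to 13.3, 4.801, 14.5 and 16.4 CPM (log2 3.54 ± 0.29, adjusted p = 1.84e-12). The muscle markers themselves summed to at most 0.846 CPM in the control and 0.658 CPM in the fasted livers.

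On the falling side Nrep, a neuronal regeneration-related protein, stood at 106, 54.8, 87.4 and 100.1 CPM in the control livers and 6.14, 23.2, 3.61 and 3.15 CPM in the fasted livers. Fasted male 2 was the highest of its group and still below every control (log2 -3.62 ± 0.45, adjusted p = 5.59e-08). Klhdc7a measured 16.5, 34.4, 14.6 and 20.2 CPM in the control livers and 4.36, 8.04, 1.25 and 0.804 CPM in the fasted livers (log2 -3.06 ± 0.44, adjusted p = 7.75e-07). Paxx, a factor of DNA end joining, stood at 22.8, 43.8, 43.0 and 53.5 CPM in the control livers and 6.77, 7.63, 4.96 and 6.01 CPM in the fasted livers (log2 -2.67 ± 0.27, adjusted p = 3.56e-10).

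The size of the fasting effect was next compared with that at CT12 and CT20. Between CT12 and CT16 the effect differed for 446 genes (2.11%), of which 439 were called at CT16 and 437 of those were larger there. Cbfa2t3, a corepressor, moved from -0.36 at CT12 to 1.32 at CT16 (difference 1.68 ± 0.27, adjusted p = 0.00134). The other genes with the smallest p were Myom1 (1.04 to 3.54), Lpin2 (0.58 to 2.37), Slc36a1, a lysosomal amino acid carrier (-0.25 to -1.44), and Actg1, a cytoplasmic actin (-0.61 to -2.17). The count depended on single livers of the CT16 groups, and was 84 without control female 2, 115 without fasted male 1, 139 without fasted female 2 and 212 without control male 2.

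Among the groups, 7 of 22 cholesterol genes differed from CT12, where the median of the list was -0.30 against -1.44 at CT16. In triglyceride and droplet genes 6 of 15 differed (median 0.35 against 1.38). None of the 20 genes in the fatty acid synthesis list, which does not hold Mid1ip1, passed that test, and the list had a median of -0.69 at CT12 and -0.69 at CT16. At CT12 6 of its members fell and 1 rose, against 12 and 2 at CT16. In simulated data the test of the difference called 37% of genes changed by 1 on the log2 scale.

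Between CT16 and CT20 the effect differed for 761 genes (3.59%). In 632 it was larger at CT20, 388 of the 761 were called at CT20 and not at CT16, and 123 were called at CT16 and smaller at CT20. Rdh11, a retinol dehydrogenase, went from -1.18 to -2.97 (difference -1.79 ± 0.24, adjusted p = 4.71e-05). Fdps, which makes farnesyl pyrophosphate, went from -1.24 to -3.72, and Gm3571, a predicted gene that may share reads with a similar sequence and is uncertain for that reason, from -1.16 to -3.75. The fasting effect on Cidec was larger at CT20, 7.97 against 3.63 at CT16 (difference 4.34 ± 0.63, adjusted p = 6.50e-05). Abcf3 had fallen at CT16 (-0.26) and rose at CT20 (0.47), though its call at CT16 was lost without control female 1 or fasted female 2 (log2 -0.19 to -0.20). The count of 761 fell to 308 without fasted female 2, to 319 without control female 1 and to 469 without fasted male 1.

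By list, 13 of 22 cholesterol genes and 9 of 18 fatty acid oxidation genes differed between CT16 and CT20, and the medians went from -1.44 to -2.68 and from 0.62 to 1.25. In cytosolic heat shock proteins 3 of 14 differed. Hspa8 was not called at CT16 (0.06) and higher at CT20 (2.02, adjusted p = 1.58e-10), and Hsp90aa1, which had fallen at CT16, gave 0.20 at CT20 (adjusted p = 0.491). The livers of each time came from other mice, so these are differences between groups of animals.

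**Figure D4:**
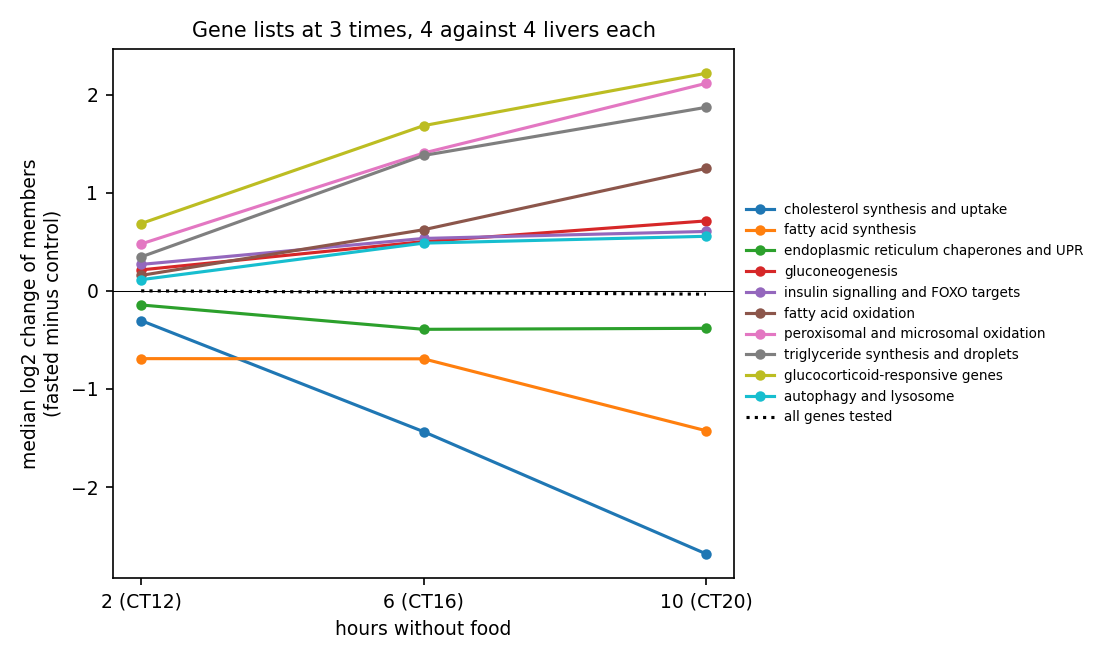
Hours without food (2 at CT12, 6 at CT16 and 10 at CT20) are on the x axis, and the y axis gives the median log2 difference of fasted over control over the tested members of 10 lists, from 4 against 4 livers at each time, with no error bars. The cholesterol list goes from -0.30 to -1.44 and -2.68, while the dotted line of all tested genes stays near 0.

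Males and females were compared with 2 animals per sex and treatment. The fasting effect differed between the sexes for 0 of 21187 genes (0%) in edgeR's quasi-likelihood test, with 1067 at an unadjusted p under 0.05. That is about the share that chance gives at this threshold. DESeq2 and limma-voom also called 0 genes, with 1069 and 972 at an unadjusted p under 0.05. With every gene counted at least once kept in the test, 179 passed. A count of 0 does not show that the sexes responded alike. In simulated data this test called only 4.5% of genes changed by 1 on the log2 scale in fasted females alone. The smallest adjusted p was that of Pdk4, whose difference was 1.14 in males and 5.55 in females (difference 4.402 ± 1.01, adjusted p = 0.854).

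The next smallest unadjusted p belonged to Klhl24, which rose in both sexes (1.07 in males, 2.07 in females), and to 5730455P16Rik and Ndufaf8. In 5730455P16Rik the fasted females lay at 13.6 and 12.2 CPM against 17.7 to 20.3 CPM in the other 6 livers (male -0.01, female -0.61). Ndufaf8, an assembly factor of complex I, showed the same order (male -0.03, female -0.73). Gm46209, a predicted gene near 1 CPM, gave -0.73 in males and 0.88 in females. Over the sexes together it was not called (0.07, adjusted p = 0.852).

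**Figure D5:**
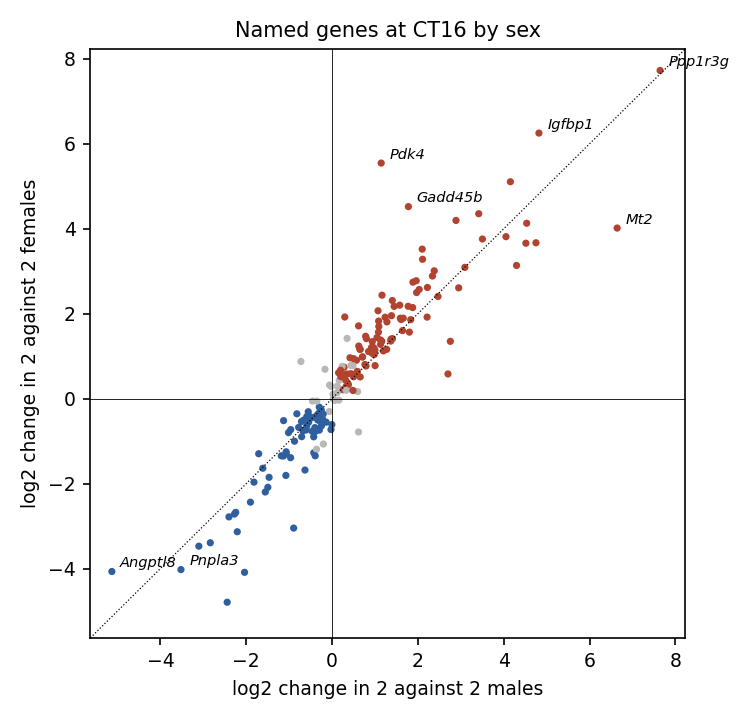
Each point is 1 named gene, with the log2 difference of fasted over control in males on the x axis and in females on the y axis, each from 2 against 2 animals. Red genes rose and blue genes fell over both sexes, grey genes were not called, the dotted line marks equal differences, and Pdk4 lies at 1.14 in males and 5.55 in females.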

How the data were processed

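The authors deposited raw counts of reads per gene for 80 liver libraries, from stranded, paired, poly(A)-selected RNA. The submitters' processing notes name Trimmomatic, HISAT2 and DESeq2 and the build GRCm39, with versions not given in the sources used here. Groups followed the titles. Counts of 78275 genes were filtered with filterByExpr, which kept 21187, and scaled by TMM (edgeR 4.0.16, R 4.3.3). A quasi-likelihood model in which every combination of treatment, time and sex had its own mean was fitted to all 80 libraries (40 residual degrees of freedom). Fasted minus control at CT16 weighted the sexes equally, and genes were called at a Benjamini-Hochberg adjusted p under 0.05. The differences from CT12 and CT20 and between the sexes were contrasts of the same fit. No name links same-numbered animals, and p-values measure the spread between mice. Counts per unit of library size (CPM) used the TMM-scaled totals, and log2 CPM for the level limit a prior count of 2. The totals (29726111 to 51834302) limit precision for genes near 1 CPM. Alternatives used limma 3.58.1 and DESeq2 1.42.0, and the steps were tested on simulated data.

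The comparison, the 36 gene lists (10 of cell type markers) and the rules were chosen with earlier results of these data known. Named were up to 4 members of each list with the smallest adjusted p, the 10 largest rises and falls among called, officially named genes with a mean of at least 1 on the log2 CPM scale and groups that did not overlap, and the 5 smallest p of each difference. Some genes that this rule selects are not reported here, although the counts of their lists include them. Members that moved against their list or were not called, Fgf21, Mt1, Mt2, the genes of printed promoters, the cytoskeleton genes, the chromosome 9 neighbours and the genes of opposite sign were named after their values were seen. Lists are described by counts and medians, with no test of a list. Promoters are from RefSeq on GRCm38.p6, matched by symbol, and no coordinate was carried between builds. Cidea and Slc7a11 of the lists were not tested for low counts. The deposited tables of scaled counts and of exon counts were not used here.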

Additional observations from a re-analysis of the deposited data

Results flagged for a closer look

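Of 380 groups of 4 livers tested for a value far from the others (185 named genes and 5 library measures in both groups), 21 held one (5.53%), where chance gives about 1 in 20. The values are given beside the range of the other 3 livers. Control female 1 stood above the rest of its group in Cdkn1a (27.4 CPM against 3.93 to 5.85), Lpin1 (196 CPM against 44.3 to 70.2), Foxo1 (62.1 CPM against 35.2 to 36.6) and Mt2 (40.8 CPM against 0.700 to 5.52). Control female 2 stood above the rest of its group in Rgs16 (7.33 CPM against 0.396 to 1.21), Pnpla3 (44.5 CPM against 2.38 to 5.45), Cbfa2t3 (8.11 CPM against 6.34 to 6.62) and Rdh11 (95.8 CPM against 52.4 to 55.4). Control male 1 stood above the rest of its group in Dbp (20.9 CPM against 6.43 to 7.75) and Ahcy (1633 CPM against 1402 to 1430.1). Fasted female 2 stood above the rest of its group in Nfil3 (54.5 CPM against 35.8 to 38.8). Fasted male 1 stood above the rest of its group in Nags (66.4 CPM against 51.2 to 52.3) and Gadd45a (1.16 CPM against 0.636 to 0.677). Fasted male 2 stood above the rest of its group in Nrep (23.2 CPM against 3.15 to 6.14) and Sirt3 (96.0 CPM against 84.5 to 86.0). Control female 2 stood below the rest of its group in Klf9 (50.02 CPM against 91.9 to 96.0) and Sirt1 (10.8 CPM against 13.2 to 13.5). Control male 2 stood below the rest of its group in Cps1 (6632 CPM against 7364 to 7453). Fasted female 1 stood below the rest of its group in Fdft1 (24.7 CPM against 39.0 to 41.3). Fasted male 1 stood below the rest of its group in Atf4 (66.9 CPM against 79.0 to 80.3). Fasted male 2 stood below the rest of its group in Plin5 (113 CPM against 274 to 292).

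The fasting effect of 37 named genes differed between CT16 and CT12 in the test of that difference (adjusted p under 0.05 in edgeR's quasi-likelihood test). The log2 effect at CT16 minus that at CT12 was above 0 for Lpin1 (3.37), Gadd45b (3.01), Cdkn1a (2.89), Myom1 (2.50), Plin4 (2.48), Cidec (2.19), Acot2 (2.01), Lpin2 (1.78), Bud13 (1.74), Ehhadh (1.69), Cbfa2t3 (1.68), Slc22a5 (1.57), Pex11a (1.40), Cebpb (1.34), Zpr1 (1.32), Ccng2 (1.31), Plin5 (1.19), Pnpla2 (1.13), Foxo1 (0.96), Ulk1 (0.82), Abcb4 (0.81), Sik3 (0.66), Klhl24 (0.60), Mat2a (0.58) and Atf6 (0.45). It was below 0 for Nrep (-2.81), Klhdc7a (-2.48), Paxx (-1.999), Sqle (-1.89), Actg1 (-1.56), Fdft1 (-1.53), Mid1ip1 (-1.31), Slc36a1 (-1.19), Lss (-1.11), Actb (-0.90), Rdh11 (-0.84) and Tpm1 (-0.46). Without control female 2 of CT16 the test across all genes called 84 in place of 446, without fasted male 1 it called 115, without fasted female 2 139 and without control male 2 212.

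Between CT20 and CT16 the effect of 33 named genes differed in the same test. The log2 effect at CT20 minus that at CT16 was above 0 for Cidec (4.34), Apoa4 (2.61), Alas1 (2.16), Hspa8 (1.96), Acot2 (1.94), Cyp4a10 (1.89), Ehhadh (1.87), Pex11a (1.27), Bnip3 (1.11), Hsp90aa1 (1.02), Polr1g (0.97), Mat1a (0.94), Pnpla2 (0.91), Cpt1a (0.82), Eci2 (0.82), Rrp8 (0.78), Rrp9 (0.74), Polr1b (0.74), Abcf3 (0.73) and Abcb4 (0.72). It was below 0 for Gm3571 (-2.59), Gm65935 (-2.51), Fdps (-2.48), Acly (-1.96), Rdh11 (-1.79), Bud13 (-1.66), Sqle (-1.63), Fdft1 (-1.40), Ppard (-1.33), Zpr1 (-1.22), Slc19a2 (-0.84), Klhl24 (-0.79) and Abcb11 (-0.77). Without fasted female 2 of CT16 the test across all genes called 308 in place of 761, without control female 1 319 and without fasted male 1 469. Both sets share the CT16 livers.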

How the results depend on the processing

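The number of genes called at CT16 was 4955. It was 4968 with DESeq2 size factors, 4987 with upper quartile scaling, 4446 with every gene counted at least once kept, 4448 with at least 10 counts required in every library, 4786 with limma-voom and 5187 with DESeq2. From the 8 CT16 libraries alone 4068 were called and without sex in the model 3615. A stricter adjusted p under 0.01 left 3185, and a change of at least 1.5 times left 2652. Males alone gave 1221 and females alone 3617, a contrast that was not itself a test of a difference between them. Leaving out 1 of the 8 livers gave 3538 to 4543. Leaving out the control CT8 female library rich in ribosomal RNA, an alternative chosen after seeing the data, gave 5172.

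No label paired the livers, and replicate numbers were not used as pairs in the main fit. The deviations of same-numbered fasted and control livers correlated at 0.249 in males and 0.0728 in females. With 2 livers per sex and treatment these values cannot settle whether such livers were paired. With the replicate number as a block 3937 genes were called from all 80 libraries and 4818 from the 8 CT16 libraries alone.

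The difference between CT16 and CT12, called for 446 genes, was called for 1157 without the low-count filter, 748 with DESeq2 and 66 at an adjusted p under 0.01, and leaving out 1 liver gave 84 to 521. The difference between CT20 and CT16, called for 761, gave 1461 without the filter, of which 38.4% were higher at CT20 against 52.4% of the 761. It gave 1238 with DESeq2, 196 at an adjusted p under 0.01 and 308 to 820 with 1 liver left out. The difference between the sexes went from 0 to 179 genes without the filter. In the fits without the filter some p-values were far smaller, as given for Igfbp1 with the sexes, and their counts cannot be set beside the others. The causes were not tested.

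Of 161 named genes called at CT16, 87 passed in every fit tried, 37 failed in at least 1 fit without 1 liver and 37 failed in other fits alone. Of 24 named genes not called, 10 passed in some fit. None of the 185 changed direction among called values. A gene that was not called is not thereby shown to be unchanged.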

Other observations

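The genes of the cytoskeleton were lower in fasted livers, a group that was picked after its values had been seen. Of 18 tested actins, tubulins and tropomyosins 12 fell and none rose, against 11.9% of all tested genes that fell. In 12 of the 18 all fasted livers lay below all controls, against 9.35% of all tested genes. The median was -0.67, with -0.34 at CT12 and -0.87 at CT20. Actg1, a cytoplasmic actin, stood at 116, 93.2, 148 and 167 CPM in the control livers and 28.9, 26.9, 29.3 and 28.8 CPM in the fasted livers (log2 -2.17 ± 0.19, adjusted p = 1.64e-11). Its partner Actb measured 476, 595, 565 and 538 CPM in the control livers and 230.0, 241, 205 and 229 CPM in the fasted livers (log2 -1.26 ± 0.13, adjusted p = 1.22e-09). Tuba1c (-1.63) and Tuba4a (-0.91), subunits of microtubules, and Tpm1, a tropomyosin that lines actin filaments (-0.62), also fell without overlap. Members of these families have similar sequences, and reads could be shared between them in the counting.

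A run of neighbouring genes on chromosome 9, noticed in the same way, mostly rose. In RefSeq order it holds Sik3, Apoa1, Apoc3, Apoa4, Apoa5, Zpr1 and Bud13, and 6 of the 7 rose, against 11.5% of all tested genes. In 4 of the 7 all fasted livers lay above all controls, against 9.57% of all tested genes. The ends of the run were set after the values had been seen. Pafah1b2 and 4931429L15Rik, the genes beyond its ends, are not described here. Bud13, a splicing factor, stood at 5.48, 4.59, 5.80 and 5.76 CPM in the control livers and 30.4, 16.5, 32.7 and 38.2 CPM in the fasted livers (log2 2.42 ± 0.22, adjusted p = 2.34e-11). Zpr1, a zinc finger protein, measured 42.6, 32.5, 37.3 and 32.8 CPM in the control livers and 185, 122, 199 and 218 CPM in the fasted livers (log2 2.30 ± 0.20, adjusted p = 8.80e-12). Sik3, a salt-inducible kinase, rose by 1.07. Among the apolipoproteins the differences were 1.38 for Apoa4, 0.69 for Apoa1 and 0.34 for Apoa5, while Apoc3 gave 0.06 (adjusted p = 0.755). Apoa5 lost its call without control male 2, control female 2, fasted male 2, fasted female 1 or fasted female 2 (log2 0.24 to 0.37), and Apoa1 without control female 2 or fasted male 1 (log2 0.48 to 0.56). The effect on Bud13 and Zpr1 was smaller at CT20, 0.76 and 1.08, and that on Apoa4 was larger, 4.00.

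For 35 genes the effect differed between CT16 and CT20, was called at both and had opposite signs. Of these 33 fell at CT16 and rose at CT20, among them Polr1g, a subunit of RNA polymerase I (-0.54 and 0.43), Rrp8, of ribosomal RNA processing (-0.39 and 0.39), and Abcf3 (-0.26 and 0.47). The 2 genes that rose at CT16 and fell at CT20 were Slc19a2, a thiamine carrier (0.38 and -0.46), and Gm65935, a predicted gene (1.11 and -1.40). At CT16 Polr1g lost its call without control female 1 or fasted female 2 (log2 -0.42 to -0.43), Rrp8 without control male 1, control female 1, fasted male 1 or fasted female 2 (log2 -0.25 to -0.37), Abcf3 without control female 1 or fasted female 2 (log2 -0.19 to -0.20), Slc19a2 without control male 2, control female 1, fasted male 1 or fasted female 2 (log2 0.31 to 0.36) and Gm65935 without control male 1, control female 1, fasted male 1 or fasted female 2 (log2 0.77 to 1.03).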
